A study of Mus musculus with 6 samples.

Results

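Genes of interleukin-7 (IL-7) and common gamma chain cytokine signalling were followed across 3 mouse leukemias and a treatment meant to delete Zfx in them. The set is defined by gene symbol and holds 10 genes: the receptor chains Il7r, Il2ra, Il2rb and Il2rg, the kinases Jak1 and Jak3, the transcription factors Stat5a and Stat5b, and the inhibitors Socs1 and Cish. Of these, 8 had a probe set with their own symbol, among 19938 genes measured in that way. Jak3 lay only on a probe set that carries several symbols, and Il2rg is unnamed in the annotation used here, so neither is analysed here. All 8 passed the filter on dim genes described with the processing, and 13956 genes were tested in all.

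IL-7 is made by stromal cells of thymus and bone marrow and keeps early T cells alive and dividing. Its receptor pairs the IL-7 receptor alpha chain, encoded by Il7r, with the common gamma chain, which is shared by the receptors for IL-2, IL-4, IL-9, IL-15 and IL-21. Binding brings JAK1 and JAK3 together, they phosphorylate the STAT5 factors, and STAT5 switches on survival genes as well as Socs1 and Cish, whose products damp the signal. Il7r is a reported target of Notch signalling, and activating changes of this pathway occur in human T cell acute lymphoblastic leukemia (T-ALL).

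The leukemias were Notch induced T-ALL lines 14843, 14844 and 14846. Each had been started by a retrovirus carrying Notch-IC, the active intracellular part of Notch, in blood progenitors with a tamoxifen-inducible Cre-ER transgene and the conditional Zfx fl/y allele, so both treatment groups carry all of these. From day 10 after transplant into sublethally irradiated mice, recipients of each line were given Vehicle (labelled ZFX flox) or Tamoxifen, 5 mg daily by gavage for 3 days (labelled ZFX null), and 48 h after dosing ended the GFP+ leukemia cells were recovered by sorting. There is 1 array per line and treatment, 6 in all, and every line is a single leukemia. Which promoter drives Cre-ER and how old the mice were is not given in the sources used here. The arrays include no Tamoxifen-treated leukemia that lacks Cre or the conditional allele, so the drug, Cre activity and Zfx loss cannot be told apart.

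The checks of the whole series gave the following values. Zfx itself was at 10.98, 10.90 and 10.72 log2 intensity in the Vehicle arrays of lines 14843, 14844 and 14846 and at 10.96, 10.98 and 10.86 in their Tamoxifen arrays. The groups overlapped, with a fitted difference of 0.07 ± 0.06 (SE) and a limma adjusted p of 0.48. Which part of the gene its probe set covers is not stated, so this level does not check the labels. Of 14 T lineage markers, 13 had a probe set, with Cd3e, Thy1 and Cd8b1 among them. The summed level of the 13 lay between 16.03 and 16.28 on the log2 scale in every array. The brightest markers weigh most in this sum, and 1 of the 13, Cd4, spanned at least 1 log2 unit, from 10.53 to 11.98. Correlations between arrays lay between 0.991 and 0.996. In RNA from sorted cells in bulk, fewer cells that express a gene and less RNA per cell cannot be told apart.

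Promoter sequence is shown for the receptor gene whose level varied between arrays, Il7r, and for 3 members whose transcription responds to the signal: Il2ra, a STAT5-responsive receptor chain, and the feedback inhibitors Socs1 and Cish. The stretches come from RefSeq (GRCm38.p6), run 5′ to 3′ along the gene, and end just before the annotated gene. Capitals mark matches, on either strand, to any of 6 motifs: TTCNNNGAA (STAT), AGGCCT (the core of the reported ZFX motif), CCGGAA (ETS), TGTGGT (RUNX), TGTTTAC (FOXO) and TGGGAA (RBPJ).
Il7r, chr15:9529942-9530126, minus strand: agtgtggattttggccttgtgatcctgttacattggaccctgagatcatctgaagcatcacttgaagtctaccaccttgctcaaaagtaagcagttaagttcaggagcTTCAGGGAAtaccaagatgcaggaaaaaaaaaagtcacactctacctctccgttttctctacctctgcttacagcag
Il2ra, chr2:11642542-11642791, plus strand: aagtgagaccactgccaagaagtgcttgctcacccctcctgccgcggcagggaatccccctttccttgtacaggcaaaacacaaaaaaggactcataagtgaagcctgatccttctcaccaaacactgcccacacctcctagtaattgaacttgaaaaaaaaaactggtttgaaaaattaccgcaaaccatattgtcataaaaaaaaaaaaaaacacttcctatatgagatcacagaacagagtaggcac
Socs1, chr16:10785537-10785786, minus strand: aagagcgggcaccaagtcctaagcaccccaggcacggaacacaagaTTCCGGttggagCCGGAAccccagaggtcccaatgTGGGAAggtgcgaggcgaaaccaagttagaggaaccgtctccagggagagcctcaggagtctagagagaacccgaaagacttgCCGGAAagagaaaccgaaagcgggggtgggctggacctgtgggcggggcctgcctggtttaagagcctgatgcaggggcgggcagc
Cish, chr9:107296409-107296658, plus strand: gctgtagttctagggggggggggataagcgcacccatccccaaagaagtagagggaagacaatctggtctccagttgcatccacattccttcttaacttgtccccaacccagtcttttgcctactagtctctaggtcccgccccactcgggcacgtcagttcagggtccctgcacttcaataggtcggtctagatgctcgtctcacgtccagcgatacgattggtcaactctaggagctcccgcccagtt
The Il7r stretch held 1 match, the STAT motif as TTCAGGGAA, beginning 142 bases before the start used in the table. The Socs1 stretch held 3 ETS matches and 1 RBPJ match. The Il2ra and Cish stretches held no match to these letters within 250 bases, which says nothing of sites elsewhere. Over the 250 bases before the start in 32851 RefSeq promoter windows, 7.02% held the STAT letters, 12.0% the ETS letters and 21.6% the RBPJ letters. A match is a description of letters and not a measured binding site. Il2rb has no entry in the promoter table, and 7 of the 10 members have a window there that reaches outside the gene.

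Il7r ranged widely between leukemias and did not respond to Tamoxifen in one direction. Its probe set (10427628; the gene lies at chr15:9506159-9529941 of GRCm38.p6) read 10.67, 11.89 and 12.49 log2 intensity in the Vehicle arrays of lines 14843, 14844 and 14846, and 11.14, 11.35 and 11.88 in the Tamoxifen arrays. Line 14843 was thus the lowest and line 14846 the highest under both treatments, and the groups overlapped. Within lines, Tamoxifen minus Vehicle was 0.47 in line 14843, a 1.38-fold higher level, but -0.54 and -0.60 in lines 14844 and 14846. The fitted difference over the 3 lines was -0.22 ± 0.21 (SE), with a 95% interval from -0.76 to 0.32 and a limma adjusted p of 0.56. Without line 14843 it was -0.57 ± 0.07 with an adjusted p of 0.019, in a fit of 4 arrays that called 3.57% of genes. Without line 14844 it was -0.07 (adjusted p = 0.92) and without line 14846 it was -0.03 (adjusted p = 0.95), so its size depended on which leukemias were included.

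Il2rb, the beta chain through which cells answer IL-2 and IL-15, showed the same split with a wider swing. It read 8.04, 9.06 and 10.13 log2 intensity in the Vehicle arrays of lines 14843, 14844 and 14846, and 9.23, 8.79 and 9.75 in the Tamoxifen arrays (probe set 10430344; chr15:78479256-78511621). The Vehicle array of line 14843 was the lowest of the 6, while under Tamoxifen line 14844 was the lowest. Within line 14843 the Tamoxifen array was higher by 1.19, or 2.29-fold, and within lines 14844 and 14846 the differences were -0.28 and -0.38. The fitted difference was 0.18 ± 0.31 (SE), with a 95% interval from -0.60 to 0.96 and a limma adjusted p of 0.76, and without line 14843 its sign turned, to -0.33 ± 0.07 with an adjusted p of 0.082. Without lines 14844 and 14846 it was 0.40 (adjusted p = 0.65) and 0.46 (adjusted p = 0.48).

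**Figure D1:**
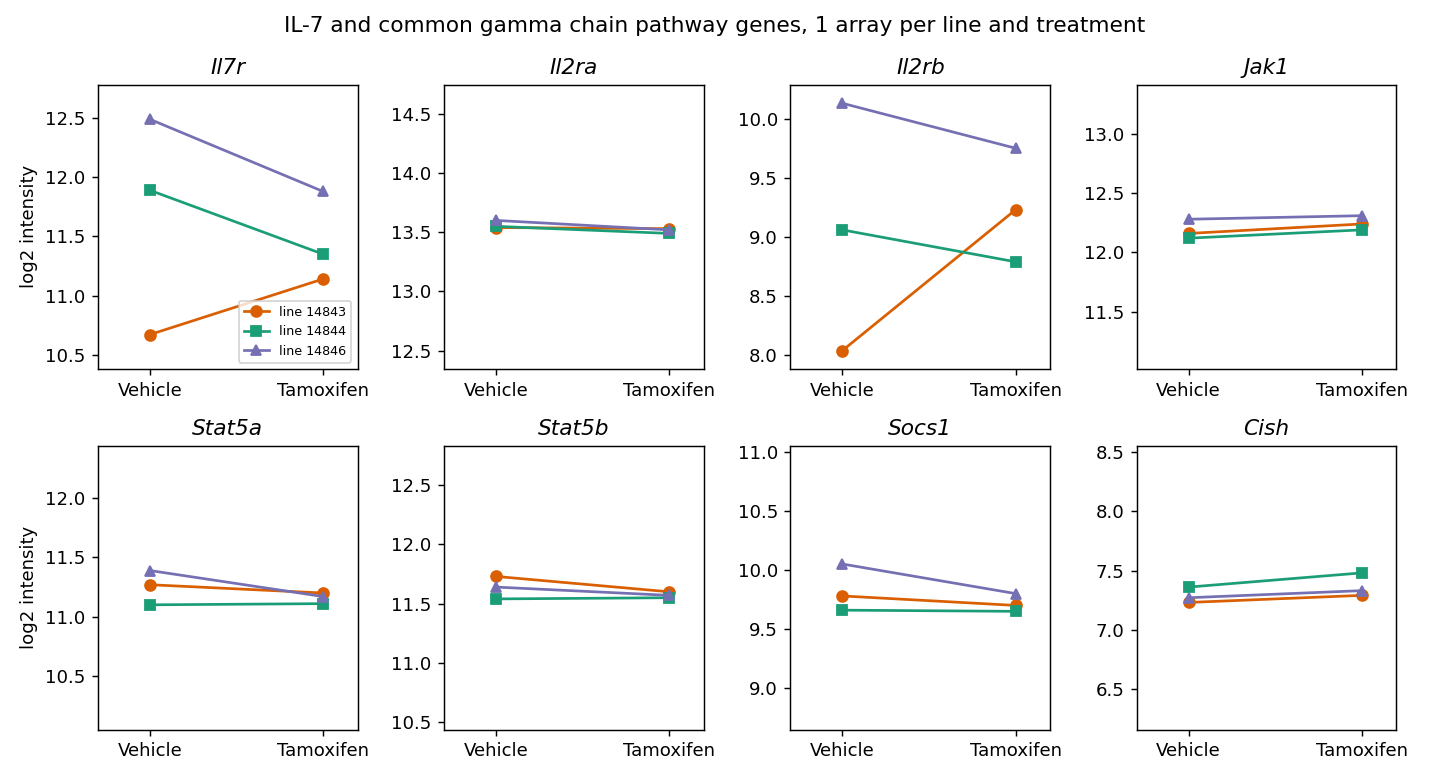
Log2 intensity of the 8 measured members in each array, with Vehicle at left and Tamoxifen at right of each panel, 1 line joining the 2 arrays of a leukemia and every panel spanning the same range of log2 units. Il7r and Il2rb spread over 1.82 and 2.09 log2 units with line 14843 going up and the others down, while the other 6 members are nearly flat.

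Opposite within-line differences of this size were uncommon over all genes. A difference of at least 0.3 upward in one line together with one of at least 0.3 downward in another was found in 2 of the 8 members, Il7r and Il2rb, and in 0.903% of the 13956 genes tested. With 1 array per line and treatment, a difference in response between lines cannot be tested, so these are values of single arrays. By line, 2 members were at least 0.3 higher in line 14843, where 6.42% of genes were, and 0 were at least 0.3 lower, against 9.22% of genes. In line 14844, 1 member (Il7r) was at least 0.3 lower, against 6.1% of genes, and in line 14846, 2 members (Il7r and Il2rb) were, against 10% of genes. No member was at least 0.3 higher in either of these lines, where 3.93% and 3.74% of genes were. Il2rb in line 14843 also passed 1 log2 unit, as 0.408% of genes did in that line.

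The order of the lines was the same for both receptor chains, but it was not resolved by the test. Mean Il7r over the treatments was 10.90 ± 0.33 log2 intensity in line 14843, 11.62 ± 0.38 in line 14844 and 12.18 ± 0.43 in line 14846 (SD, n = 2 arrays each). Line 14846 exceeded line 14843 by 1.28 ± 0.26 (SE, limma adjusted p = 0.071), while neighbours in the order differed by 0.72 and 0.56 with adjusted p-values of 0.33 and 0.47. Mean Il2rb was 8.64 ± 0.84, 8.92 ± 0.20 and 9.94 ± 0.27 in the same order of lines. Line 14846 exceeded line 14843 by 1.30 ± 0.38 (adjusted p = 0.14) and line 14844 by 1.02 ± 0.38 (adjusted p = 0.35), and lines 14844 and 14843 differed by 0.29 (adjusted p = 0.76). In these 3 contrasts, for which 3.67% (line 14846 against 14843), 1.73% (14846 against 14844) and 0.996% (14844 against 14843) of all genes were called, 0 of the 8 members passed. By limma's moderated F test over the 3 lines, 0 of the 8 members passed an adjusted p of 0.05, against 3.11% of all genes, and 3 members (Il7r, Il2rb and Socs1) had an unadjusted p under 0.05, as did 2688 of the 13956 genes. Without line 14843, the same differences of 0.56 for Il7r and 1.02 for Il2rb passed (adjusted p = 0.017 and 0.0027), in a fit that called 3.26% of genes. That fit leaves out the line whose within-line differences ran against the others, which narrows the residual spread. It therefore does not settle the order of the lines. Il7r and Il2rb both lie on chromosome 15. The median of its 584 tested genes deviated by at most 0.01 from the mean of the lines in any line. A median over the whole chromosome does not describe the stretches around these genes, which were not tested.

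Il2ra, the high-affinity IL-2 receptor chain known as CD25, which immature thymocytes display, was bright and nearly constant. It read 13.54, 13.55 and 13.60 log2 intensity in the Vehicle arrays of lines 14843, 14844 and 14846 and 13.53, 13.49 and 13.52 in the Tamoxifen arrays. It was the only one of the 8 whose groups did not overlap, as was so for 23.7% of all genes, yet all 6 arrays lay within 0.11. The fitted difference was -0.05 ± 0.05 (SE), with a 95% interval from -0.17 to 0.08 and a limma adjusted p of 0.59. The highest value of any probe set was between 14.47 and 14.57 on the 6 arrays, and whether so bright a probe set can still register a rise was not tested.

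The kinase and the transcription factors downstream of the receptor were level. Jak1, which pairs with the IL-7 receptor alpha chain, lay between 12.12 and 12.31 in the 6 arrays, with within-line differences of 0.08, 0.07 and 0.04 in lines 14843, 14844 and 14846. Its fitted difference was 0.06 ± 0.05 (SE), with a 95% interval from -0.06 to 0.19. Stat5a and Stat5b, neighbouring genes on chromosome 11 that encode closely related factors, have a probe set each. Stat5a read 11.27, 11.10 and 11.39 in the Vehicle arrays and 11.20, 11.11 and 11.17 in the Tamoxifen arrays, with overlap of the groups and a fitted difference of -0.09 ± 0.06. Stat5b lay between 11.54 and 11.73, with a fitted difference of -0.06 ± 0.05. The 95% intervals reached from -0.25 to 0.06 for Stat5a and from -0.20 to 0.07 for Stat5b, so they leave room for differences of that size. Because the genes are alike, some probes of one may read the other, which was not tested.

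The feedback inhibitors, whose transcription is a usual read-out of STAT5 activity, gave values on either side of 0. Socs1, which blocks JAK kinases, read 9.78, 9.66 and 10.05 log2 intensity in the Vehicle arrays of lines 14843, 14844 and 14846 and 9.70, 9.65 and 9.80 in the Tamoxifen arrays. The largest step was in line 14846, at -0.25, and the groups overlapped. The fitted difference was -0.12 ± 0.06 (SE), with a 95% interval from -0.28 to 0.05 and a limma adjusted p of 0.34. Cish, which competes with STAT5 at the receptor, was dim, at 7.23, 7.36 and 7.27 in Vehicle arrays and 7.29, 7.48 and 7.33 in Tamoxifen arrays, against a filter at 6.70. Each line was slightly higher with Tamoxifen, by 0.06, 0.12 and 0.06, and the fitted difference was 0.08 ± 0.05 with an adjusted p of 0.37. Neither Socs1 nor Cish followed the swing of Il7r and Il2rb in line 14843, where they differed by -0.09 and 0.06.

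**Figure D2:**
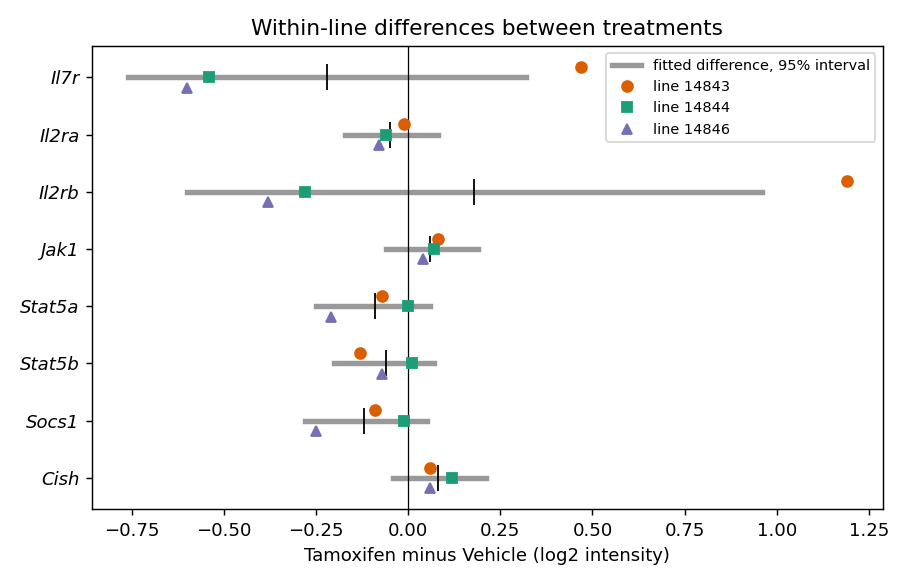
Tamoxifen minus Vehicle in log2 intensity for the 8 members, with a symbol for each line, a tick for the fitted difference and a grey bar for its 95% interval. The bars of all 8 include 0, those of Il7r and Il2rb are the widest, and line 14843 lies at 0.47 and 1.19 for these genes.

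Across the set, 0 of the 8 members changed with treatment by limma's test at an adjusted p of 0.05, against 6.23% of all genes, and 0 had an unadjusted p under 0.05, against 3328 of the 13956 genes. Adjusted p-values lay between 0.34 and 0.76. The median difference was -0.06 over the 8 members and 0.03 over all genes, with 5 members below 0 and 3 above. Within-line differences had one sign in all 3 lines for 4 members, Il2ra, Socs1, Jak1 and Cish. Some of these were as small as -0.01 (Il2ra in line 14843 and Socs1 in line 14844). The share of all genes with one sign was not counted, so nothing is read from this number. The lines were less far apart after Tamoxifen for 7 of the 8 members, with an SD over lines of 0.93 in Vehicle and 0.38 in Tamoxifen arrays for Il7r and of 1.05 and 0.48 for Il2rb, and Cish was the exception. The same direction was found for 62.1% of all genes.

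The genes whose profile over the 6 arrays lay closest to those of Il7r and Il2rb were the following. Closeness was measured as the root mean square difference of log2 values after subtracting each gene's mean, over 6 arrays that share leukemias in pairs, among all 13956 genes. Nearest to Il7r were Itgae, the integrin chain CD103, at 0.18 log2 units, Izumo1r, the surface protein also called folate receptor 4, at 0.18, and Plekha1, a phosphoinositide-binding adaptor, at 0.19. Nearest to Il2rb were Izumo1r at 0.19, Tnip3, a partner of the NF-kappaB inhibitor A20, at 0.23 and Endod1 at 0.23. Izumo1r read 8.27, 9.23 and 10.31 in the Vehicle arrays and 8.97, 9.08 and 9.76 in the Tamoxifen arrays of lines 14843, 14844 and 14846. It too was lowest in the Vehicle array of line 14843 and highest in that of line 14846. Since Izumo1r was chosen for its likeness over these arrays, the shared extremes are no separate evidence. Il2rb stood 39th in closeness to Il7r and Il7r stood 13th in closeness to Il2rb, at 0.31.

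**Figure D3:**
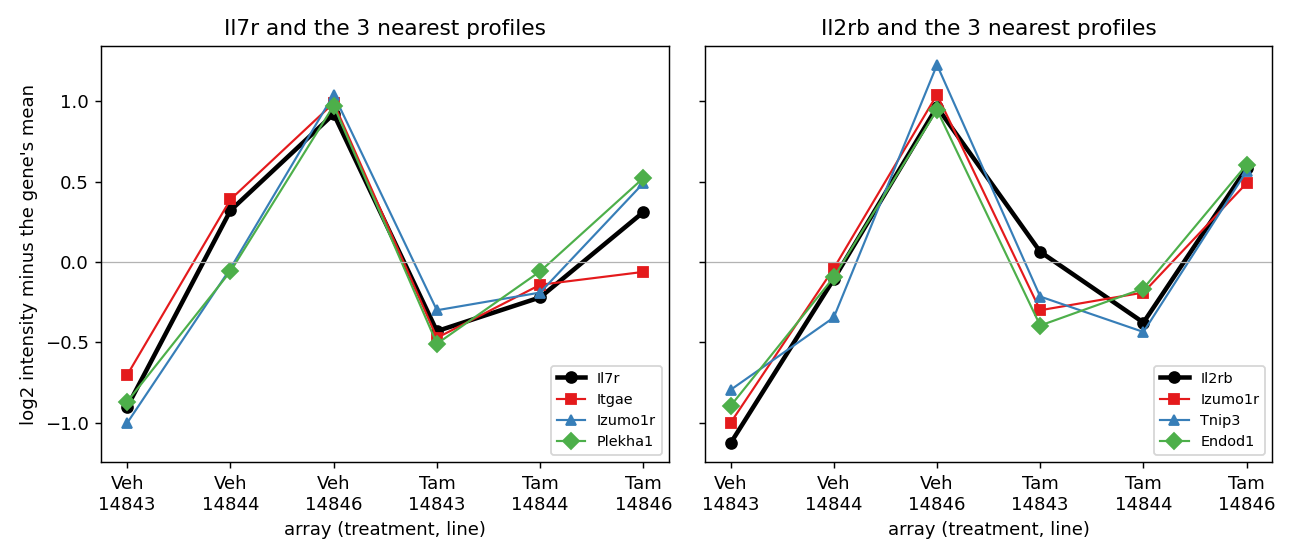
Log2 intensity minus each gene's mean in the 6 arrays for Il7r (left) and Il2rb (right), in black, with the 3 genes of nearest profile in colour. All profiles are lowest in the Vehicle array of line 14843 and highest in that of line 14846. The genes in colour were chosen for this likeness.

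Markers of other cells that might carry these receptors were read beside Il7r and Il2rb in these cells, which had been sorted as GFP+ leukemia. Of 10 markers of NK and innate lymphoid cells, 9 had a probe set and 5 passed the filter, and the defining markers Ncr1, Klrd1, Klrk1 and Eomes were below it. The summed level of the 9 lay between 13.05 and 13.59 in Vehicle and between 13.46 and 13.62 in Tamoxifen arrays, lowest in the Vehicle array of line 14843, where Tamoxifen minus Vehicle was 0.41. The 5 tested markers did not share a direction. In lines 14843, 14844 and 14846 Klrb1c, the NK1.1 antigen, gave 0.88, 0.53 and -0.17 and Gzma, a granule protease, gave 0.65, -0.07 and 0.00. Prf1, the pore protein perforin, gave 0.02, 0.47 and -0.14, and Gata3, which T cells also need, gave 0.14, 0.13 and -0.07. Tbx21 was the only one of the 5 called for treatment by limma (adjusted p = 0.045), at -0.27, -0.29 and -0.23. Klrb1c and Gata3 differed between lines (adjusted p of limma's F test = 0.0063 and 0.025), as did 3.11% of all genes. Klrb1c read 6.60, 7.37 and 10.45 in Vehicle and 7.48, 7.90 and 10.29 in Tamoxifen arrays, the order of lines of Il7r. Gata3 was highest in line 14844, at 12.14 and 12.27.

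Markers of B cells, myeloid cells and T cell states gave the following values. Of 8 B cell markers 7 had a probe set and 3 passed the filter, and their sum differed by 0.27, 0.07 and -0.52 in lines 14843, 14844 and 14846. Cd79b, a chain of the B cell receptor, gave 0.65, 0.12 and -0.91, Cd22 gave 0.12, -0.02 and -0.39, and Pax5 gave 0.08, 0.15 and 0.07. Ms4a1, Cd79a, Ebf1 and Blnk were below the filter. Summed markers of monocytes and macrophages differed by 0.14, 0.11 and -0.86 in the same order. The value in line 14846 went with Ly86 alone, which read 11.20 in its Vehicle and 8.90 in its Tamoxifen array, since Lyz2, Cd68 and Itgam gave 0.27, 0.13 and 0.08 there and Csf1r, Adgre1, Cd14 and Fcgr1 were below the filter. Summed neutrophil markers, all 8 above the filter, differed by 0.03, 0.41 and -0.06, with S100a9 at -0.15, 0.47 and -0.30. Ngp, the brightest of them, gave 0.36, 0.75 and -0.18, Ltf gave -0.05, 0.52 and -0.10, and S100a8 gave 0.01, 0.18 and -0.10. Camp gave 0.05, 0.27 and 0.03, and Cebpe gave -0.05, 0.12 and 0.10. Elane and Mpo went the other way in lines 14844 and 14846, at -0.11, -0.10 and 0.14 and at -0.02, -0.13 and 0.11. All 7 markers of regulatory and activated T cells passed the filter, and 3 of them spanned at least 1 log2 unit. Their sum, in which Ikzf2 is bright, lay between 12.47 and 12.69 in Vehicle and between 12.26 and 12.60 in Tamoxifen arrays. The markers did not share a direction. Icos, a costimulatory receptor, gave 1.13, 0.86 and -0.14, and Il10 gave 0.22, 0.73 and -0.26. Ikzf2 was lower in each line, at -0.46, -0.21 and -0.28, and Foxp3 gave -0.09, 0.10 and 0.03. Tnfrsf18 gave 0.02, 0.08 and -0.41, Tnfrsf4 gave 0.04, 0.17 and 0.16, and Ctla4 gave 0.25, 0.13 and 0.12. Ctla4, an inhibitory receptor, differed between lines (adjusted p of limma's F test = 0.0049) and was highest in line 14846, at 8.80 and 8.92. The coreceptor Cd4 gave -0.70, 0.46 and -0.01, so it was lower with Tamoxifen in line 14843, where Il7r and Il2rb were higher. Other T lineage markers were lower there too, with Cd8a at -0.44, 0.07 and 0.11 and Cd8b1 at -0.25, -0.01 and 0.04. Ptcra gave -0.32, -0.07 and -0.41. Cd3d and Cd3g were higher in line 14843, at 0.23 and 0.06. The part of such cells or of T cell stage in the levels of Il7r and Il2rb was not tested.

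Genes around the members were read from 8 lists of the wider pathway, 99 genes of which 82 were tested. Of the 82, 7 fell and 0 rose, which is 8.54% against 4.93% of all genes called lower and 1.3% called higher, and 20 had an unadjusted p under 0.05, as did 3328 of the 13956 genes. Their median difference was 0.00 against 0.03 over all genes.

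No partner chain, ligand or JAK or STAT relative that was tested passed the threshold, as 6.23% of all genes did. Of 6 other receptor chains 5 were tested, with a median of 0.11, and 1 had an unadjusted p under 0.05 by limma's test. Crlf2, the receptor chain for the IL-7 relative TSLP, gave 0.18 ± 0.07 (SE) and Il9r, which joins the common gamma chain to bind IL-9, gave -0.36 ± 0.18. Il9r read 9.95, 10.70 and 10.80 in Vehicle arrays and 10.05, 10.43 and 9.90 in Tamoxifen arrays, so that its largest step, -0.90, was in line 14846. Of 7 ligands, Il2, Il7, Il15, Il21 and Tslp were below the filter, and the 2 tested, Il9 and Il4, gave -0.06 ± 0.07 and 0.02 ± 0.06, with signs that turn without line 14846 and without line 14843, to 0.01 and -0.02. Of 6 tested JAK and STAT relatives, 1 had an unadjusted p under 0.05. This was Stat6, the factor of IL-4 signalling, which read 11.22, 11.18 and 11.21 in Vehicle and 10.98, 10.93 and 10.98 in Tamoxifen arrays. Its groups did not overlap, and its difference of -0.24 ± 0.05 had a limma adjusted p of 0.054. Stat3 gave -0.14 ± 0.07.

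The list of negative regulators held 3 of the 7 decreases, among 18 tested genes with a median of -0.05. Over all genes, 4.93% were called lower. Of the 18, 8 had an unadjusted p under 0.05 by limma's test, as did 3328 of the 13956 genes. Among these 8, Ptpn2 went up, by 0.43, 0.32 and 0.18 in lines 14843, 14844 and 14846. Its fitted difference was 0.31 ± 0.07 (SE, limma adjusted p = 0.059). Socs6 read 9.34, 9.52 and 9.27 log2 intensity in the Vehicle arrays of lines 14843, 14844 and 14846 and 8.04, 8.17 and 8.41 in the Tamoxifen arrays. The groups did not overlap, and Socs6 fell 2.25-fold, with a fitted difference of -1.17 ± 0.11 (SE) and a limma adjusted p of 0.0079. These values are of the brightest of its 3 probe sets. With the mean of its probe sets the difference was smaller, at -0.94 ± 0.08 (limma adjusted p = 0.0065). Socs7 fell 1.57-fold, from 9.97 ± 0.06 to 9.32 ± 0.10 (SD, n = 3 each), with a limma adjusted p of 0.0086. These relatives of Socs1 are best known as regulators of receptor tyrosine kinase and insulin signalling rather than of JAK kinases. Ptpn11, the phosphatase SHP2, which mostly carries signals towards RAS, fell by 0.36 ± 0.05 on the log2 scale (limma adjusted p = 0.023). Socs6 and Socs7 passed without line 14843 or 14846 and missed the threshold without line 14844, at 0.069 and 0.072, and Ptpn11 missed it whichever line was left out, at 0.060 to 0.12.

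The branches towards RAS and AKT held 3 more decreases, where 4.93% of all genes were called lower. Of 8 tested genes of the RAS-MAPK adaptor branch, Sos2 and Sos1, exchange factors that load RAS with GTP, fell, and the list median was 0.04. Sos2 read 10.71, 10.67 and 10.76 in Vehicle and 9.80, 10.14 and 10.19 in Tamoxifen arrays, with no overlap and a difference of -0.67 ± 0.09 (SE; limma adjusted p = 0.019). Sos1 fell by 0.34 ± 0.05 (limma adjusted p = 0.026). Of 15 tested genes of the PI3K-AKT branch, the kinase Akt1 fell by 0.34 ± 0.06 (limma adjusted p = 0.029), from 11.88 ± 0.12 to 11.54 ± 0.10 (SD, n = 3 each), and the list median was -0.01. Sos2 missed the threshold without line 14844, at 0.092, and Sos1 and Akt1 missed it whichever line was left out, at 0.052 to 0.15 and at 0.061 to 0.17, and without line as a block, at 0.074 and 0.11.

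**Figure D4:**
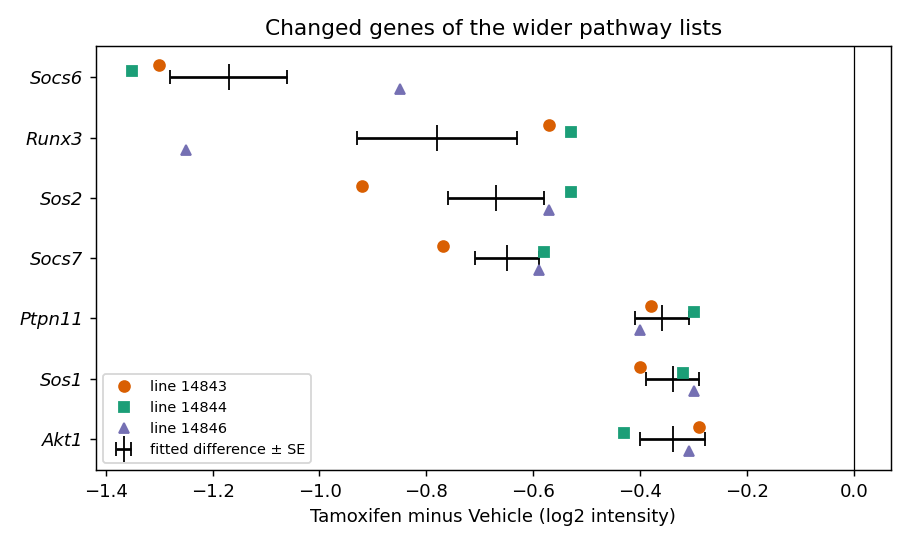
Tamoxifen minus Vehicle in log2 intensity for the 7 changed genes of the wider pathway lists, with a symbol for each line and a tick and bar for the fitted difference ± SE. All symbols lie below 0, from -0.29 (Akt1 in line 14843) to -1.35 (Socs6 in line 14844).

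Among 16 tested targets of STAT5 and IL-7, 0 changed with treatment by limma's test, against 6.23% of all genes. Of the 16, 2 had an unadjusted p under 0.05, and the median was 0.02. Bcl2, a survival factor induced by IL-7, read 10.52, 10.48 and 10.47 in Vehicle and 11.03, 10.69 and 10.74 in Tamoxifen arrays, without overlap, at 0.33 ± 0.07 (SE; limma adjusted p = 0.068), and Id2, an inhibitor of E proteins, gave -0.21 ± 0.08. The survival kinase Pim2 differed between lines, with means of 9.11 ± 0.01 in line 14843, 9.21 ± 0.08 in line 14844 and 11.88 ± 0.22 in line 14846 (SD over the 2 arrays of a line; adjusted p of limma's F test = 7.8e-04), and without line 14846 its span was 0.10. Line 14846 was also the line with the highest Il7r and Il2rb. Bcl6, a repressor that STAT5 holds down, was named after its values were seen, as the only pathway gene beyond the members with opposite within-line differences of at least 0.3. It read 10.42, 9.03 and 8.83 in Vehicle arrays and 9.76, 9.43 and 8.78 in Tamoxifen arrays. It was thus highest in line 14843, where Il7r was lowest. Of the 16, 1 (Pim2) passed limma's F test between lines. Bcl6 did not (adjusted p = 0.094), nor did Bcl2l1 and Ccnd3 of the same list (0.16 and 0.31). Their means in lines 14843, 14844 and 14846 were 9.91, 9.74 and 9.27 for Bcl2l1 and 12.54, 12.39 and 12.23 for Ccnd3. By mean, both were also highest in line 14843, as were Bcl2, Mcl1, Foxp3 and Cdkn1b. Others were highest in line 14846, as Il7r was: Pim1, Ccnd2, Socs2, Osm, Tnfrsf13b, Id2 and Lta. Bcl2l11 was highest in line 14844. Among these uncalled targets Pim1 had means of 10.41, 10.30 and 11.14 in lines 14843, 14844 and 14846 (adjusted p of limma's F test = 0.12). A link between these levels and Il7r was not tested.

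Of 14 tested factors reported to act on Il7r, 1 fell, against 4.93% of all genes, and the median was -0.02. It was Runx3, a repressor or activator according to T cell stage. Runx3 read 9.33, 8.98 and 10.96 in Vehicle arrays and 8.76, 8.45 and 9.71 in Tamoxifen arrays, with a difference of -0.78 ± 0.15 (SE; limma adjusted p = 0.044) in spite of overlapping groups. The adjusted p was 0.56 without line as a block, 0.061 without the filter on dim genes, and 0.052 and 0.14 without lines 14843 and 14844. Runx3 also differed between lines (adjusted p of limma's F test = 0.023), with its highest mean, 10.33 ± 0.88, in line 14846. So did Ikzf1, which encodes the lymphoid factor Ikaros. Its mean was 12.56 ± 0.14 in line 14846, 10.94 ± 0.39 in line 14843 and 11.08 ± 0.01 in line 14844 (SD over the 2 arrays of a line; adjusted p of limma's F test = 0.019), and without line 14846 its span was 0.14, and without line 14844 its adjusted p was 0.052. Il4ra, the IL-4 receptor chain, had the reverse order of lines from Il7r, at 9.09 ± 0.06, 8.58 ± 0.21 and 8.32 ± 0.11 in lines 14843, 14844 and 14846 (adjusted p of limma's F test = 0.042), a call lost whichever line was left out, without the treatment term and without the filter.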

How the data were processed

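RNA from sorted leukemia cells (Trizol extraction and 200 ng into the Ambion WT kit, per the labels' protocols) was measured on 6 one-colour Affymetrix arrays. The authors deposited linear probe set intensities from RMA in Affymetrix Expression Console 1.1, per the submitters' processing notes. RMA equalises the distribution of signal across arrays, so a difference in total signal is removed. Precision is limited by the number of arrays, since there is no read depth.

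Of 35556 probe sets, 21789 carried 1 gene symbol, 1621 several and 12146 none in the platform annotation used here. Those with 1 symbol were used, and 21698 of them were found by Entrez identifier in a RefSeq table (GRCm38.p6), with 0 symbols changed. The probe set with the highest mean stood for each of 19938 genes, and each member with a probe set had only 1. The log2 of the intensity was taken. Genes with a mean at or above the 30th percentile (a log2 intensity of 6.70) were tested with limma 3.58.1 in R 4.3.3, with line and treatment as terms, two-sided, with Benjamini-Hochberg adjustment over 13956 genes and a threshold of 0.05. Each gene had 2 residual degrees of freedom and the moderation added 3.47. The block rests on the series design, by which each line went to both treatments. The 2 arrays of a line deviated together from their groups' means, with correlations of 0.64, 0.68 and 0.68. 

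The members, lists and tests were chosen with earlier results of these data known. The rule for naming genes took the members, Zfx, from each list up to 4 changed genes or else the 2 with the smallest p, the gene with the smallest p among those that differed between lines, and the 3 nearest profiles of each member spanning at least 1 log2 unit. Markers, Bcl6, Ptpn2 and the other STAT5 and IL-7 targets outside this rule, such as Bcl2l1, Ccnd3 and Pim1, were named after their values were seen. Alternatives were no block, no treatment term, no filter or a filter at the 50th percentile, log2(intensity + 16), arrays centred on their median, eBayes with trend and robust settings, the mean of a gene's probe sets, and each line left out.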

Additional observations from a re-analysis of the deposited data

Results flagged for a closer look

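Some genes gave within-line differences of Tamoxifen minus Vehicle that were at least 0.3 log2 units up in one line and at least 0.3 down in another. With 1 array per line and treatment, the difference between lines was not tested. For Il7r the differences were 0.47, -0.54 and -0.60 in lines 14843, 14844 and 14846, and for Il2rb they were 1.19, -0.28 and -0.38. With arrays centred on their median the values were 0.47, -0.56 and -0.62 for Il7r, and 1.19, -0.31 and -0.40 for Il2rb. RMA had already equalised the arrays, so centring could shift them only slightly and is no test of these signs. Bcl6 gave -0.66, 0.40 and -0.05 and Cd4 gave -0.70, 0.46 and -0.01, both down in line 14843 and up in line 14844. Among the markers of other cells, Cd79b gave 0.65, 0.12 and -0.91 and S100a9 gave -0.15, 0.47 and -0.30. Of the genes named for their likeness to Il7r or Il2rb, Izumo1r gave 0.70, -0.15 and -0.55, Tnip3 gave 0.58, -0.09 and -0.66, Endod1 gave 0.49, -0.07 and -0.34, and Plekha1 gave 0.36, 0.00 and -0.45. These were chosen by that likeness, so their agreement is no separate evidence.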

How the results depend on the processing

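Over all genes, the count changed by treatment was 870, and 295 without line as a block (the fit with no replicate block), and between 70 and 669 when a line was left out. The lowest count was without line 14844. The count of members changed by treatment was 0 in each setting except without line 14843, where it was 1 (Il7r), so it ranged from 0 to 1. Genes differing between lines numbered 434, and 106 with line alone in the fit, and between 193 and 455 without a line. Members differing between lines numbered 0, and from 0 to 2 without a line, with 2 (Il7r and Il2rb) without line 14843. The sign of the Il2rb treatment difference turned only without line 14843, with a range from -0.33 to 0.46 over the lines left out. It turned for Il4 (from -0.02 to 0.06) and for Il9 (from -0.12 to 0.01). The block changed no call of a member. Other calls of pathway genes lost are given with the genes, and Stat6, at 0.054, passed with arrays centred, with a pseudocount of 16, without the filter and with trend and robust settings, at 0.046 to 0.050. Leaving out a line leaves 4 arrays and fewer residual degrees of freedom. The number of arrays limits what can be resolved: the 95% intervals of the members' treatment differences are between 0.25 and 1.56 log2 units wide.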
